A study of Homo sapiens with 16 samples.

Results

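The interaction of nutlin and GSK2830371 in TPC1 cells is the difference that GSK2830371 made to the nutlin effect on each gene, taken as the combination minus GSK2830371 less nutlin minus DMSO on the log2 scale. It was measured in all 8 TPC1 libraries, out of 16 libraries in the series, which also holds 8 of the K1 line. TPC1 is a human papillary thyroid carcinoma line with wild type p53 and a RET fusion. Its cells, grown in RPMI medium with fetal bovine serum and antibiotics, received 0.2% DMSO as the vehicle, 10 µM Nutlin-3a, 25 µM GSK2830371, or both agents together (the combination), each for 24 h, with 2 libraries per treatment. The study asked how inhibiting both repressors of p53 differs from inhibiting either, and the interaction isolates the part of the response to the combination that the separate responses do not hold. RNA was polyadenylated and strand-specific, and the values are read counts for 25369 genes.

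Total counts were 30789887 to 36896529 in the libraries numbered 1 and 62853375 to 76648552 in those numbered 3. The sample labels number the replicates 1 and 2, so each library is named here by its treatment and column number (such as nutlin library 3), and those numbered 3 were placed by treatment alone. The labels do not say that replicates are separate cultures, although the authors state for the study in general that replicates were prepared independently, and p-values measure the spread between these libraries. That spread is not taken from each gene alone. The test draws it toward a trend over all genes, with a median of 11.92 prior degrees of freedom beside 3 residual ones. Thyroid identity was checked with marker genes, in CPM (counts as a share of the library total after TMM scaling, in parts per 1e6). *PAX8*, a thyroid transcription factor, lay at 291 to 459 CPM over the 8 libraries and *FOXE1*, another one, at 21.97 to 27.46 CPM. *NKX2-1* and *TSHR*, the thyrotropin receptor, had no count in any of these libraries, *SLC5A5*, the iodide carrier, reached at most 0.250 CPM, and *TG* ran from 0.161 to 5.09 CPM, so most genes of differentiated thyroid function were absent or low. *RET* was at 42.8 to 48.5 CPM and the keratins *KRT8* and *KRT18* at 305 to 516 and 117 to 391 CPM, whereas *EPCAM* and *CDH1* were at or below 0.182 CPM. Leukocyte markers *PTPRC* and *CD3E* and the fibroblast marker *DCN* were at 0, while others of these classes were detected, the macrophage marker *CD68* at 33.9 to 72.9 CPM, *PDGFRB* at 2.60 to 14.2 and *COL1A1* at 0.857 to 5.18.

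MDM2 is the ubiquitin ligase that holds p53 at low levels, and nutlin occupies its p53 binding pocket, so that p53 accumulates and switches on genes for cell cycle arrest, repair and death. PPM1D, also called WIP1, is a phosphatase induced by p53 that dephosphorylates p53 and several stress kinases, and GSK2830371 is an allosteric inhibitor of it. In the integrated stress response, phosphorylation of eIF2α lowers general translation while favoring that of ATF4, a transcription factor for genes of amino acid supply, redox balance and, under lasting stress, cell death.

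Joint treatment altered many genes by more or less than the separate effects would give when multiplied. In lists of genes grouped by function, those of the amino acid and stress response, p53 targets, growth factor ligands and inflammatory cytokines held more calls above that product than below it, while mitotic, sterol and lysosomal genes held more below it. Of the 15273 genes above 0.1 CPM in at least 2 libraries, 714 (4.67%) had a positive interaction and 859 (5.62%) a negative one. A gene is called when its interaction exceeds 1.5-fold in either direction at an adjusted p below 0.05 (edgeR quasi-likelihood F test, Benjamini-Hochberg), with the column number fitted as a block and 3 residual degrees of freedom. Further counts, unless stated, use the 10895 genes averaging 5 CPM or more under some treatment, of which 513 (4.71%) were positive and 698 (6.41%) negative. Without the block the counts over all genes were 431 and 534. Scaling by library size alone gave 536 positive and 1078 negative genes, so that 33.2% of calls were positive in place of 45.4%. In bulk RNA, fewer cells in a given state and less RNA per cell cannot be told apart.

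Most calls placed the combination at the extreme of the 4 treatments. In a smaller part the combined change fell short of the product of the separate ones, as in antagonism. An extreme need not mean synergy, since in many called genes a single agent moved the level the other way. The lowest mean of positive genes was with nutlin in 246, with GSK2830371 in 158 and with DMSO in 106. Positive interactions mostly peaked under the combination, where 368 of the 513 genes had their highest mean, and in 332 both combination libraries lay above all 6 others. Another 117 were highest with DMSO, so that a decrease by nutlin was weaker in the presence of GSK2830371. Of the 698 negative genes, 491 had their lowest mean with the combination, and in 405 both of its libraries lay below all 6 others. The highest mean of negative genes was with nutlin in 332, with GSK2830371 in 202 and with DMSO in 157, so that many stood above the vehicle with a single agent. A further 194 were lowest with DMSO, where the increase by the combination fell short of the multiplied increases by each agent. All of these genes kept their sign in both numbers. The calls come from these same libraries, so neither that nor the placement of the combination libraries is separate support for them. The median absolute interaction was 0.77 in positive and 0.76 in negative genes (log2), with 127 and 135 genes beyond 2-fold. On a linear scale, where effects in CPM add, 1 positive and 37 negative genes took the opposite sign.

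**Figure D1:**
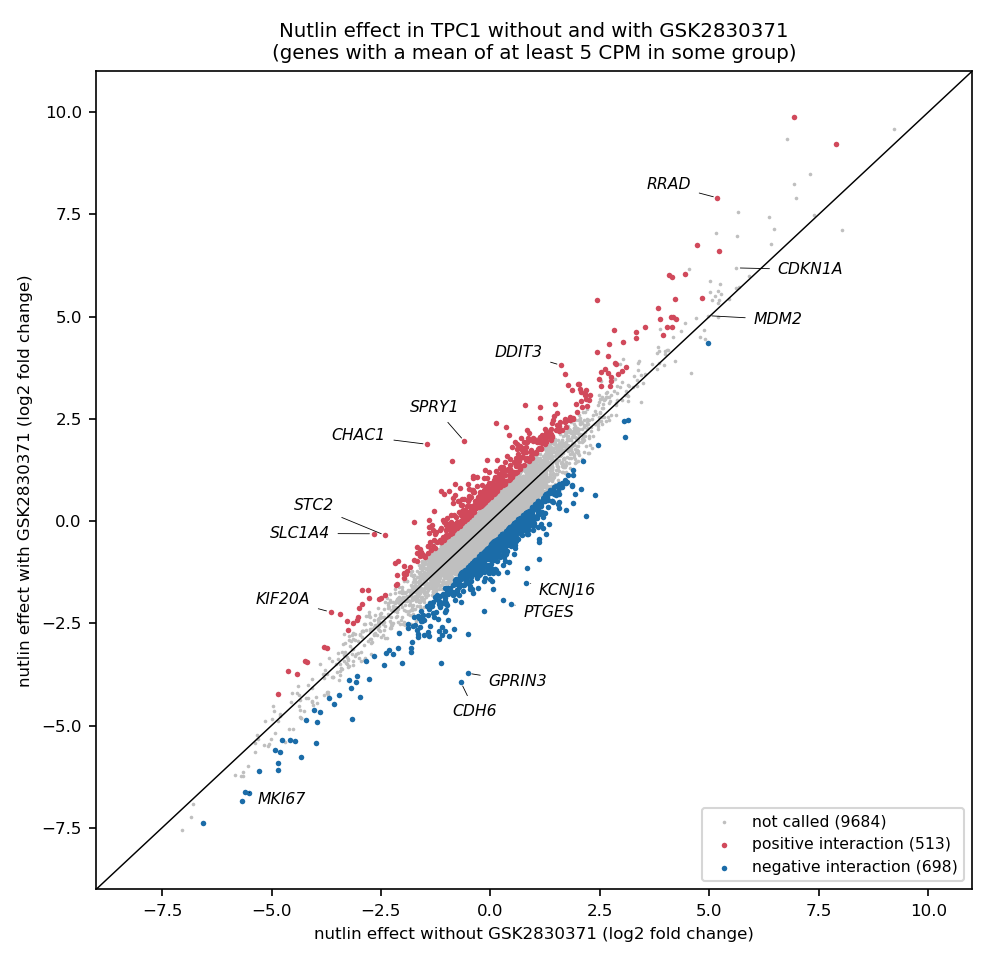
Nutlin effect on each gene without GSK2830371 (x axis) and with it (y axis), both as log2 fold changes in TPC1, for the 10895 genes averaging 5 CPM or more in some group. Red points are the 513 genes called positive and blue points the 698 called negative, gray points were not called, and the diagonal marks an unchanged nutlin effect.

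The largest called interaction was that of a glutathione-degrading enzyme of the ATF4 program, and some transcription factors of the program were also called positive. Nutlin alone lowered *CHAC1* and GSK2830371 alone raised it, yet together they gave the highest level. *CHAC1*, a γ-glutamylcyclotransferase (chromosome 15, 41245160 to 41248710 in GRCh37), was at 26.5 and 27.4 CPM with DMSO, 10.3 and 9.69 with nutlin, 84.7 and 89.0 with GSK2830371, and 299 and 339.8 with the combination. All treatments were separated, with nutlin lowest and the combination highest. The interaction was 3.32 ± 0.10 on the log2 scale (value ± standard error, adjusted p = 2.55e-11 by edgeR quasi-likelihood F test, Benjamini-Hochberg), as nutlin changed the gene by −1.44 without and 1.88 with GSK2830371. *DDIT3* (chromosome 12, 57910371 to 57915520), which encodes the pro-apoptotic factor CHOP, was at 4.08 and 4.75 CPM with DMSO, 13.5 and 13.9 with nutlin, 13.2 and 12.4 with GSK2830371, and 209.9 and 154 with the combination. Either agent alone gave a similar moderate level, and both combination libraries stood far above the rest. Its interaction was 2.199 ± 0.17 (adjusted p = 5.55e-07 by edgeR quasi-likelihood F test, Benjamini-Hochberg). *ATF3* (chromosome 1, 212738676 to 212794119), a stress-induced repressor and activator of the same leucine zipper family, was at 1.77 and 1.72 CPM with DMSO, 5.65 and 5.60 with nutlin, 2.70 and 3.76 with GSK2830371, and 37.6 and 42.8 with the combination. Both combination libraries exceeded the other 6, which all lay at or below 5.65 CPM, and the interaction was 1.90 ± 0.19 (adjusted p = 4.29e-06 by edgeR quasi-likelihood F test, Benjamini-Hochberg).

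**Figure D2:**
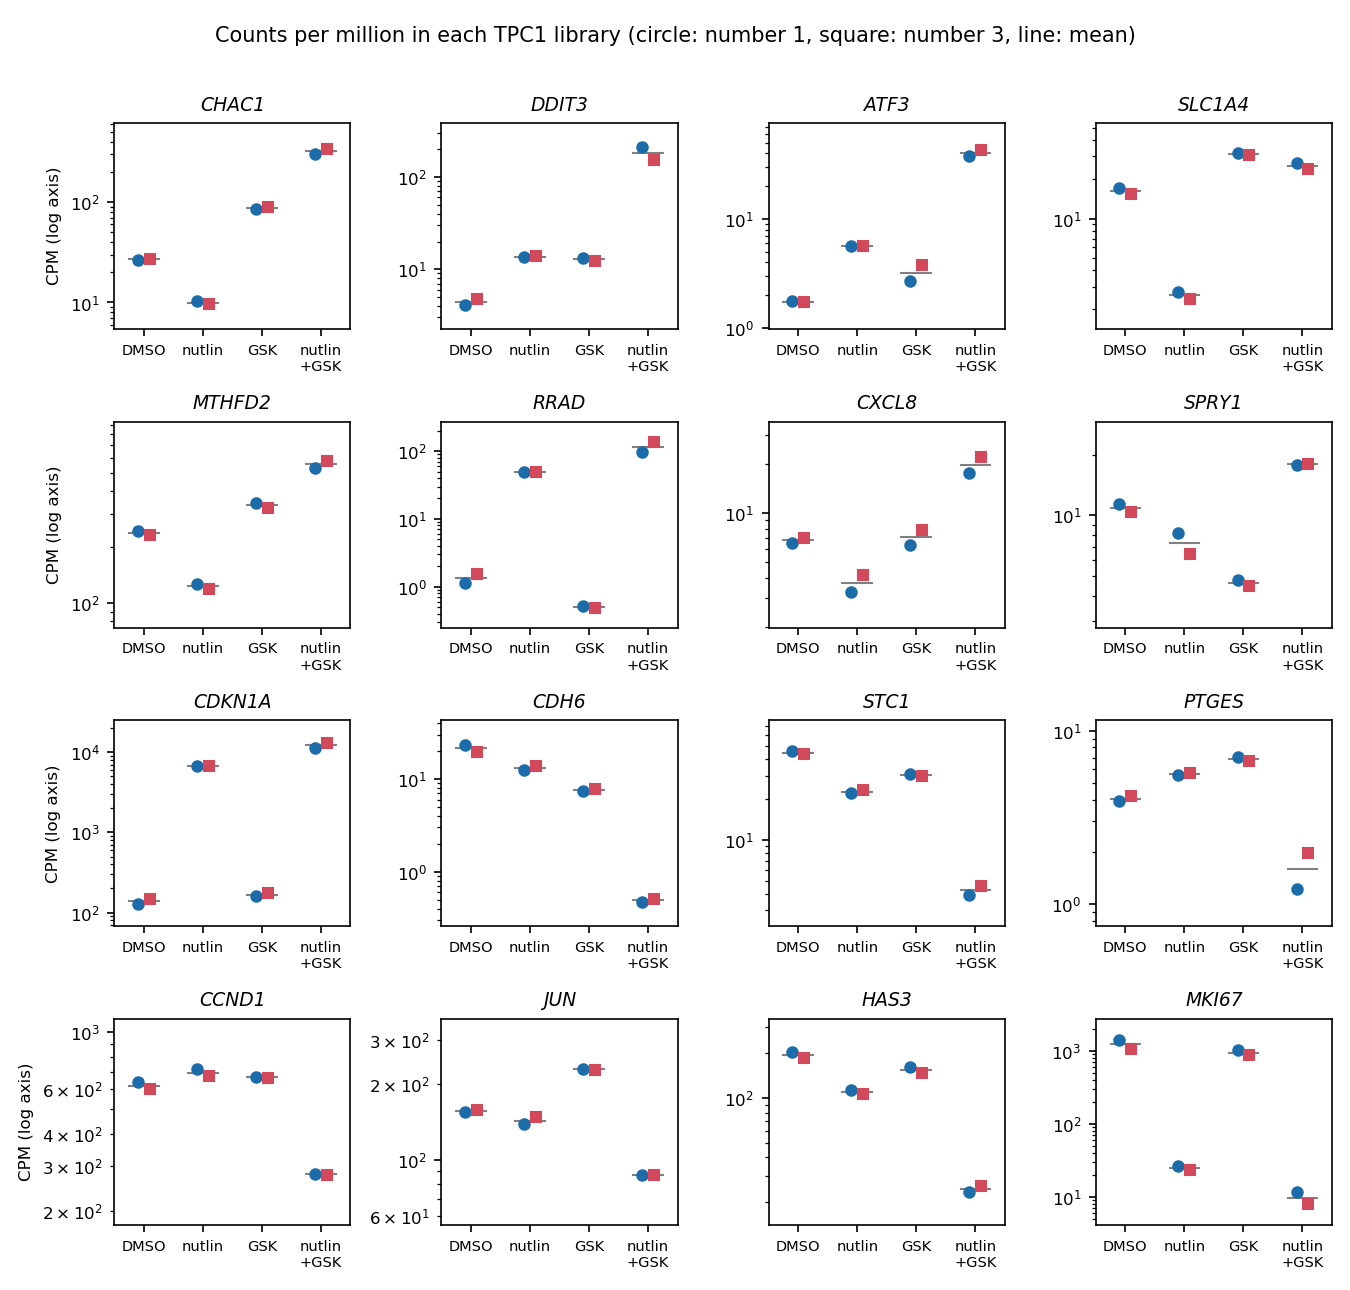
CPM on a log axis in each of the 8 TPC1 libraries for 16 genes, with circles for number 1, squares for number 3 and a line at the mean of each treatment. *CHAC1* rose from about 10 CPM with nutlin to 299 and 339.8 with the combination, and *CDH6* dropped from 23.4 and 19.3 CPM with DMSO to 0.470 and 0.513.

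Among 19 transcription factors and regulators of the integrated stress response, 7 were positive and 1 was negative, and the median interaction of the list was 0.28 against 0.00 over all 10895 genes. Counts in this and every later list are to be set beside the shares over those 10895 genes, 4.71% positive and 6.41% negative. *CEBPG*, a dimerization partner of ATF4, had an interaction of 1.86 ± 0.10, *ATF4* itself one of 0.77 ± 0.08 and *TRIB3*, a pseudokinase that restrains ATF4 and CHOP, one of 0.80 ± 0.11. *ATF4* mRNA was at 616 and 693 CPM with DMSO, 476 and 499 with nutlin, 786 and 846 with GSK2830371, and 1007 and 1074 with the combination. Nutlin libraries were the lowest and combination libraries the highest of the 8. The exception was *KLHL24*, an adaptor of a ubiquitin ligase, with −1.27 ± 0.12: nutlin took it from 17.3 and 13.6 CPM to 57.2 and 58.4, and the combination gave 48.0 and 39.4. *NUPR1*, a chromatin-associated stress protein, did not pass the test at 0.22 ± 0.10, nor did *EIF2AK1*, the heme-regulated eIF2α kinase, at −0.16 ± 0.08 (95% interval −0.32 to 0.01). With single libraries left out, *NUPR1* ran from 0.06 to 0.34.

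Promoters of these genes were searched for TGATGNAA, the composite element that ATF4 and C/EBP factors can share, on both strands of RefSeq windows reaching from 250 bases before to 50 bases after the start (300 bases, table build GRCh38.p14). A window was found for 10782 of the tested genes. At least 1 match was present in 19 of 354 positive genes with a window (5.37%), 9 of 521 negative genes (1.73%), 105 of 7487 genes that were not called (1.40%) and 1270 of all 35116 windows of the table (3.62%). In the lists of stress factors, amino acid transporters and enzymes, tRNA synthetases and secreted stress factors it was present in 5 of 19 positive genes (26.3%) and in 6 of 33 others (18.2%). The sequences below surround the match in the positive genes of those lists that carry it ahead of the start, and are shown because these genes had interactions in the same direction. Capitals mark the match, which reads TTGCATCA where the element lies on the strand opposite the gene, and each sequence is given 5′ to 3′ on the strand of its gene. They lie in GRCh37 at chr15:41245449-41245478 on the plus strand (*CHAC1*, within an annotated exon), chr1:212738532-212738591 on the plus strand (*ATF3*, upstream of the gene), chr10:101190546-101190605 on the minus strand (*GOT1*, upstream) and chr7:97501770-97501799 on the minus strand (*ASNS*, within an annotated exon). The match ended 201, 183, 190 and 60 bases before the RefSeq start. A match is a description of these letters and neither a binding site nor a cause.
CHAC1: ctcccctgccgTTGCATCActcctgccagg
ATF3: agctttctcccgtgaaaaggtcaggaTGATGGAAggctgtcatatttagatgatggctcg
GOT1: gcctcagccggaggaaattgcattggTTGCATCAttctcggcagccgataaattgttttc
ASNS: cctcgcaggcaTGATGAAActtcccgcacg

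Several genes of amino acid uptake and synthesis shared a shape, in which nutlin alone lowered a gene and the combination kept it at or above the vehicle level. *SLC1A4* (chromosome 2, 65215611 to 65250999), a carrier of alanine, serine and cysteine, was at 17.2 and 15.4 CPM with DMSO, 2.74 and 2.40 with nutlin, 31.6 and 31.0 with GSK2830371, and 26.5 and 24.2 with the combination. Nutlin libraries were far below all others, while those of the combination lay between DMSO and GSK2830371. The interaction of 2.36 ± 0.12 (adjusted p = 1.22e-08 by edgeR quasi-likelihood F test, Benjamini-Hochberg) thus reflected a nutlin effect of −2.67 without and −0.31 with GSK2830371. *SLC7A11*, the cystine and glutamate exchanger, had 1.73 ± 0.14, *SLC1A5*, a glutamine carrier, 1.54 ± 0.08, and *SLC6A9*, a glycine carrier, 1.42 ± 0.11. Of 15 amino acid transporters 5 were positive and 2 negative (4.71% and 6.41% over all genes at 5 CPM or more), with a median of 0.12.

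Among 22 enzymes of amino acid, one-carbon and glutathione metabolism 8 were positive and 1 negative. Their median of 0.57 was the highest of the 23 lists in the main fit. Over this list the median nutlin effect was −0.43 without GSK2830371 and 0.22 with it. Its rank was lost in some fits without a single library. Without combination library 1 the list of EGF family ligands and receptors was higher (0.66 against 0.57), and without DMSO library 3 that of NF-κB targets (0.53 against 0.52). *MTHFD2*, the mitochondrial methylenetetrahydrofolate dehydrogenase, was at 242 and 233 CPM with DMSO, 127 and 119.6 with nutlin, 342 and 325 with GSK2830371, and 529 and 576 with the combination. The order from nutlin through DMSO and GSK2830371 to the combination held without overlap, and the interaction was 1.67 ± 0.09. Interactions of 1.29 ± 0.08 and 1.130 ± 0.10 were found for *PCK2*, the mitochondrial phosphoenolpyruvate carboxykinase, and *GOT1*, the cytosolic aspartate aminotransferase (nutlin effect without GSK2830371 −0.07), and *ASNS*, the asparagine synthetase whose promoter is shown above, had 1.11. All 20 cytosolic aminoacyl-tRNA synthetases, which charge tRNAs with amino acids, had values above 0, and 7 were called positive and none negative. Their median was 0.43, with nutlin effects of −0.43 without and −0.05 with GSK2830371 at the median. *WARS*, *GARS*, *AARS* and *IARS*, for tryptophan, glycine, alanine and isoleucine, had 1.04 ± 0.08, 0.82 ± 0.08, 0.77 ± 0.08 and 0.70 ± 0.08.

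Secreted stress factors split in both directions. *STC2* (chromosome 5, 172741726 to 172755450), a stanniocalcin and glycoprotein hormone of the stress response, was at 42.3 and 40.7 CPM with DMSO, 7.54 and 8.02 with nutlin, 82.0 and 79.0 with GSK2830371, and 62.3 and 64.0 with the combination. It was lowest with nutlin and its interaction was 2.06 ± 0.10. Its paralog *STC1* (chromosome 8, 23699442 to 23712319) was at 45.4 and 43.1 CPM with DMSO, 22.1 and 23.4 with nutlin, 30.8 and 29.9 with GSK2830371, and 3.87 and 4.57 with the combination. Here both combination libraries fell below 5 CPM while the other 6 stayed above 22 CPM, and the interaction was −1.87 ± 0.12 (adjusted p = 7.31e-08 by edgeR quasi-likelihood F test, Benjamini-Hochberg). *ADM2*, a peptide of the calcitonin family, had 1.11 ± 0.10 and *ANGPTL4*, an inhibitor of lipoprotein lipase, −1.23 ± 0.12, and 2 of 7 members were positive and 2 negative, with a median of 0.31. *GDF15*, a divergent member of the TGF-β family that p53 and ATF4 both induce, was at 107 and 127 CPM with DMSO, 1604 and 1724 with nutlin, 243 and 259.9 with GSK2830371, and 4693 and 5002 with the combination. It was highest in the combination libraries and did not pass the fold threshold at 0.44 ± 0.09.

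Targets of p53 leaned toward positive interactions of modest size, although *MDM2* and several other well known targets had none that was called. *MDM2*, itself a p53 target, was at 141 and 123 CPM with DMSO, 4128 and 4084 with nutlin, 149 and 150.5 with GSK2830371, and 4848 and 4892 with the combination. Nutlin raised it in either setting by nearly the same factor, and its interaction was 0.06 ± 0.09 (95% interval −0.14 to 0.26). With single libraries left out it ran from −0.04 to 0.15. *CDKN1A*, which encodes the cell cycle inhibitor p21, was at 127 and 149 CPM with DMSO, 6684 and 6798 with nutlin, 159.5 and 176 with GSK2830371, and 11365 and 13227 with the combination. Libraries with both agents were the highest, but the interaction of 0.58 ± 0.09 fell just short of 1.5-fold. It was called with DESeq2 size factors and in DESeq2's Wald test (0.60 in both), with edgeR's own filter on low counts, where it just passed that fold, and at 0.63, 0.67, 0.59 and 0.62 without DMSO library 1, nutlin library 1, GSK2830371 library 1 and combination library 1. *BTG2*, an antiproliferative gene, was called at 0.62 ± 0.09, but not with library size alone (0.55), after a correction for GC content and length (0.58), or without DMSO library 1 (0.57), nutlin library 3 (0.56) or GSK2830371 library 1 (0.54). *PPM1D*, whose product GSK2830371 inhibits, was not called at 0.47 ± 0.10.

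Of 18 p53 targets in arrest and feedback 4 were positive and 2 negative, with a median interaction of 0.24 and median nutlin effects of 2.42 without and 2.84 with GSK2830371. *GADD45A*, a growth arrest and DNA damage gene, rose from 22.4 and 25.6 CPM with DMSO to 179 and 183 with nutlin and 398 and 464 with the combination, with an interaction of 0.69 ± 0.09. *PLK3*, a stress-responsive polo-like kinase, had 0.68 ± 0.12 (0.54 and not called without nutlin library 3), and *E2F7*, a repressor of E2F targets, had 0.66 ± 0.11. The call of *E2F7* was lost without the block (0.69) and without any of the libraries numbered 1, DMSO (0.58), nutlin (0.56), GSK2830371 (0.57) or combination (0.56). *CCNG2*, an atypical cyclin, had −0.65 ± 0.09, and −0.58 with no call without GSK2830371 library 1.

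In the cell death group, 3 of 16 p53 targets were positive and none was negative, at a median of 0.28. *PMAIP1* (chromosome 18, 57567228 to 57571537), which encodes the BH3-only protein NOXA, was at 27.1 and 25.3 CPM with DMSO, 23.9 and 24.3 with nutlin, 33.1 and 32.0 with GSK2830371, and 67.7 and 85.6 with the combination. Nutlin alone left it at the vehicle level and the combination libraries stood above all others, giving an interaction of 1.36 ± 0.13 (adjusted p = 3.35e-06 by edgeR quasi-likelihood F test, Benjamini-Hochberg). *TNFRSF10D*, a decoy receptor for TRAIL, was at 66.6 and 65.9 CPM with DMSO, 277 and 275 with nutlin, 46.5 and 47.1 with GSK2830371, and 397 and 436 with the combination. Its lowest level was with GSK2830371 alone and its highest with the combination, and the interaction was 1.10 ± 0.08. *PIDD1*, which assembles a caspase-activating platform, had 0.66 ± 0.09. *BBC3*, which encodes PUMA, was at 7.65 and 8.58 CPM with DMSO, 78.4 and 78.9 with nutlin, 8.76 and 9.70 with GSK2830371, and 98.2 and 116 with the combination. Its interaction of 0.26 ± 0.11 did not pass the test and ran from 0.17 to 0.36 with single libraries left out. Among 17 targets in the list of repair and metabolism 4 were positive and 1 negative, at a median of 0.35. *PANK1*, a pantothenate kinase, had 1.15 ± 0.12, and *LPIN1*, a phosphatidate phosphatase, −0.78 ± 0.10, the last not called without the block (−0.76). *EPHA2*, also positive, had 0.88 ± 0.08, but it encodes an ephrin receptor, so that positive call is of neither function. *ABCA12*, a lipid transporter, had 0.87 ± 0.12 from 243 and 226 CPM with nutlin and 213 and 227 with the combination, because GSK2830371 lowered its vehicle level from 15.0 and 12.3 to 7.21 and 6.76, and on the linear scale its value was −7.80 CPM.

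Called genes of the G1/S transition were positive and most called mitotic genes negative, and most members of either list were not called. In 25 genes of the G1/S transition and DNA replication the median nutlin effect was −3.18 without and −2.93 with GSK2830371, and 4 were positive and none negative (median 0.10). These 4 depended on single libraries. *E2F1*, a driver of S phase entry, was at 51.5 and 50.2 CPM with DMSO, 3.60 and 2.28 with nutlin, 44.4 and 47.0 with GSK2830371, and 4.56 and 3.88 with the combination. Its interaction of 0.74 ± 0.18 became 0.37 without nutlin library 3, where it was not called, and it was not called without the block (0.73). The replication licensing factor *CDC6* had 0.63 ± 0.14, not called with library size alone (0.56) or without nutlin library 3 (0.57) or combination library 3 (0.45), and the helicase factor *CDC45* 0.63 ± 0.13, not called with library size alone (0.55), after the GC and length correction (0.58), or without DMSO library 3 (0.54) or nutlin library 3 (0.49). *PCNA*, the replication clamp and a p53 target that nutlin did not lower (nutlin effect 0.56), had 0.63 ± 0.08, not called with library size alone (0.56), after that correction (0.49), or without nutlin library 3 (0.57) or combination library 3 (0.55).

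In 25 mitotic and kinetochore genes, 7 were negative and 1 positive, at a median of −0.44, and the median nutlin effect was −4.22 without and −4.53 with GSK2830371. *MKI67*, the proliferation antigen Ki-67, was at 1416 and 1049 CPM with DMSO, 26.7 and 23.4 with nutlin, 1028 and 873 with GSK2830371, and 11.6 and 8.07 with the combination. Nutlin and combination libraries were separated from the others and from each other, with the combination lowest, and the interaction was −1.02 ± 0.11. *CDC25C*, the phosphatase that activates CDK1, and *CENPF*, a kinetochore protein, had −1.43 ± 0.26 and −0.89 ± 0.09. For *MKI67* and *CENPF* the call was lost without the block (−0.98 and −0.87), and on the linear scale the values of *MKI67*, *CENPF* and *CDC25C* were 266.7, 48.4 and 0.901 CPM, opposite in sign, since nutlin had already removed most of each transcript. *KIF20A* (chromosome 5, 137514408 to 137523412), a kinesin of cytokinesis, went the other way and was at 175 and 183 CPM with DMSO, 15.8 and 13.1 with nutlin, 122 and 128 with GSK2830371, and 25.3 and 28.1 with the combination. Combination libraries lay above those of nutlin and below the rest, and the interaction was 1.43 ± 0.11 (adjusted p = 5.55e-07 by edgeR quasi-likelihood F test, Benjamini-Hochberg). *FAM83D*, a spindle protein outside that list, had a similar pattern, from 118 and 116 CPM with DMSO to 44.3 and 44.6 with nutlin and 66.6 and 77.1 with the combination, and an interaction of 1.25 ± 0.09.

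Calls among growth factor ligands were positive, while most of those among genes of MAP kinase output were negative. *EREG*, which encodes epiregulin, was at 35.8 and 27.8 CPM with DMSO, 53.7 and 49.2 with nutlin, 23.0 and 19.1 with GSK2830371, and 95.2 and 77.2 with the combination. *HBEGF*, another ligand of the EGF receptor, was at 3.92 and 4.71 CPM with DMSO, 3.70 and 4.67 with nutlin, 6.21 and 6.22 with GSK2830371, and 12.8 and 15.4 with the combination. In both genes the combination libraries were the highest of the 8, with interactions of 1.32 ± 0.10 and 1.24 ± 0.16. *AREG*, for amphiregulin, had 2.99 ± 0.50 from 6 and 19 counts with DMSO, 39 and 76 with nutlin, 4 and 11 with GSK2830371 and 205 and 350 with the combination, and is uncertain because a near-identical copy exists in GRCh37 that could take up reads. Of 7 ligands and receptors 3 were positive and 1, the receptor gene *ERBB2* at −0.66 ± 0.08, was negative (−0.58 and not called after the GC and length correction), with a median of 0.48.

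*SPRY1* (chromosome 4, 124317950 to 124324915), a feedback inhibitor of receptor tyrosine kinases, was at 11.4 and 10.4 CPM with DMSO, 8.16 and 6.45 with nutlin, 4.79 and 4.47 with GSK2830371, and 17.7 and 18.1 with the combination. Each agent alone lowered it, and both combination libraries lay above the other 6, for an interaction of 2.55 ± 0.15 (adjusted p = 2.69e-08 by edgeR quasi-likelihood F test, Benjamini-Hochberg). The remaining calls among 18 genes of MAP kinase output were 3 negative ones, and the median was −0.26. *CCND1* (chromosome 11, 69455924 to 69469242), which encodes cyclin D1, was at 636 and 599 CPM with DMSO, 716 and 673 with nutlin, 666 and 663 with GSK2830371, and 278 and 276 with the combination. Neither agent alone moved it past 1.5-fold, and both combination libraries were below 280 CPM. The interaction was −1.43 ± 0.08 (adjusted p = 1.49e-08 by edgeR quasi-likelihood F test, Benjamini-Hochberg), and those of *ETV1*, an ETS transcription factor, and *DUSP6*, a phosphatase of ERK, were −0.95 ± 0.11 and −0.86 ± 0.09.

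The list of immediate early genes was divided, with 3 of 17 positive, 3 negative and a median of −0.07. Its positive members include *RRAD*, a p53 target, so the division rests in part on that gene. *RRAD*, a Ras-related GTPase that p53 induces, was at 1.128 and 1.54 CPM with DMSO, 48.8 and 49.7 with nutlin, 0.515 and 0.490 with GSK2830371, and 96.0 and 136 with the combination. Nutlin raised it in both settings, GSK2830371 alone gave its lowest level, and the interaction was 2.72 ± 0.28. *JUN*, an AP-1 subunit, was at 155 and 157 CPM with DMSO, 139 and 148 with nutlin, 230.3 and 227 with GSK2830371, and 86.9 and 86.8 with the combination. GSK2830371 libraries were the highest and combination libraries the lowest, for an interaction of −1.27 ± 0.08. *KLF6*, a zinc finger transcription factor, had −1.51 ± 0.08 with the same order of its lowest and highest treatments, and *BHLHE40*, a transcriptional repressor that nutlin raised from 84.7 and 87.7 to 228 and 237 CPM, reached only 149 and 132 with the combination (−0.96 ± 0.09).

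At 5 CPM or more, calls among inflammatory cytokines and NF-κB targets were all positive, though most members were not called. *CXCL8* (chromosome 4, 74606236 to 74609433), which encodes the neutrophil chemokine interleukin-8, was at 6.55 and 7.02 CPM with DMSO, 3.24 and 4.12 with nutlin, 6.31 and 7.88 with GSK2830371, and 17.5 and 22.03 with the combination. Nutlin libraries lay below and combination libraries above all others, and the interaction was 2.34 ± 0.15 (adjusted p = 6.79e-08 by edgeR quasi-likelihood F test, Benjamini-Hochberg). Of 15 list members 6 were positive and none was negative, the median was 0.54, and the median nutlin effect was 0.33 without and 1.02 with GSK2830371. *IL11*, a cytokine of the interleukin-6 family, had 1.21 ± 0.13, *IL32* 1.12 ± 0.16 and *RELB*, an NF-κB subunit, 0.90 ± 0.10. *SAA1*, for serum amyloid A, was at 5.48 and 8.10 CPM with DMSO, 10.5 and 13.2 with nutlin, 5.64 and 6.09 with GSK2830371, and 30.3 and 52.3 with the combination. Its interaction of 2.04 ± 0.18 is uncertain because *SAA2* is a near-identical gene. Interferon-stimulated genes were mostly below 0, with 1 of 11 positive, 2 negative and a median of −0.24. Over all genes at 5 CPM or more, 4.71% were positive and 6.41% negative. *ISG15*, a ubiquitin-like modifier, had 0.80 ± 0.12 and *IRF9*, a subunit of the interferon-induced complex ISGF3, −0.63 ± 0.10 (−0.58 and not called without nutlin library 1). *IFIT1*, an RNA-binding antiviral protein, had −0.75 ± 0.20 and was not called without the block (−0.76), nutlin library 3 (−0.71), GSK2830371 library 1 (−0.68) or combination library 3 (−0.59).

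Among 25 genes of the NRF2 response and heme metabolism 1 was positive and 1 negative, with a median of −0.20. These counts are near the shares over all genes at 5 CPM or more, 4.71% positive and 6.41% negative. *HMOX1* (chromosome 22, 35776354 to 35790207), which encodes heme oxygenase 1, was at 128 and 146 CPM with DMSO, 448 and 467 with nutlin, 549 and 574 with GSK2830371, and 891 and 481 with the combination. Each agent raised it, and the combination libraries differed from each other, the one numbered 3 lying within the range of the single agents and the one numbered 1 above it. Its interaction of −1.47 ± 0.24 (adjusted p = 0.000365 by edgeR quasi-likelihood F test, Benjamini-Hochberg) was −2.02 without combination library 1 and −1.02 without combination library 3. *SRXN1*, a sulfiredoxin, had 0.72 ± 0.08.

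Chaperones of the endoplasmic reticulum and the unfolded protein response had a median of −0.02, with 3 of 22 positive and 2 negative (4.71% and 6.41% over all genes at 5 CPM or more). *HSPA5*, the chaperone BiP, was at 1409 and 1488 CPM with DMSO, 1082 and 1100.2 with nutlin, 1336 and 1426 with GSK2830371, and 2368 and 2296 with the combination. *XBP1*, a transcription factor of the unfolded protein response, was at 83.7 and 99.4 CPM with DMSO, 51.6 and 58.7 with nutlin, 101 and 124 with GSK2830371, and 141 and 178 with the combination. In both genes nutlin was lowest and the combination highest, with interactions of 1.17 ± 0.08 and 1.23 ± 0.08. *HYOU1*, a chaperone of the same compartment, had 0.61 ± 0.08 (not called with library size alone, 0.54, or without GSK2830371 library 1, 0.56), and *CRELD2* −0.71 ± 0.12 (not called without the block, −0.70, or without nutlin library 1 or combination library 1, both −0.58).

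Calls among sterol genes were all negative, and so were those among lysosomal genes with a single exception. In 22 genes of cholesterol synthesis and uptake 4 were negative and none positive (median −0.23). *INSIG1*, which retains the sterol sensor in the endoplasmic reticulum, had −0.94 ± 0.11, and *LSS*, the lanosterol synthase, −0.68 ± 0.10 (−0.56 and not called without combination library 3). The list of lysosomal and autophagy genes had the lowest median of the 23 in the main fit, −0.47, and 9 of 23 members were negative against 1 positive. Its median nutlin effect was 0.59 without and 0.26 with GSK2830371. The mitotic list was lower in some alternative fits, as without combination library 3 (−0.49 against −0.32) and after the GC and length correction (−0.45 against −0.42). *NPC1*, a cholesterol exporter of the lysosome, was at 803 and 695 CPM with DMSO, 974 and 920.4 with nutlin, 955 and 835 with GSK2830371, and 700.2 and 507 with the combination. Combination libraries were lowest within each number, and its interaction was −0.92 ± 0.10. The positive member was *MAP1LC3B*, which encodes the autophagosome protein LC3B, at 91.6 and 101 CPM with DMSO, 128 and 136 with nutlin, 110.5 and 121 with GSK2830371, and 363 and 303 with the combination. Both combination libraries were far above the others, with an interaction of 1.08 ± 0.12, uncertain to the extent that *MAP1LC3B2* is a close copy.

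Cell adhesion and extracellular matrix held the most negative interaction. *CDH6* (chromosome 5, 31193793 to 31329253), a cadherin of kidney epithelium, was at 23.4 and 19.3 CPM with DMSO, 12.6 and 13.8 with nutlin, 7.43 and 7.84 with GSK2830371, and 0.470 and 0.513 with the combination. These are 17 and 31 counts with the combination against at least 245 in every other library, and no treatments overlapped. The interaction was −3.27 ± 0.22 (adjusted p = 1.27e-07 by edgeR quasi-likelihood F test, Benjamini-Hochberg), while the linear scale gave 1.06 CPM, since each agent alone had already removed much of the transcript. *HAS3*, a hyaluronan synthase, was at 203 and 186 CPM with DMSO, 113 and 106 with nutlin, 162 and 148 with GSK2830371, and 23.5 and 25.9 with the combination. Both combination libraries were below 26 CPM, the others above 106, and the interaction was −1.81 ± 0.09. *LAMA3*, a laminin chain, had −0.71 ± 0.09 and lost its call without the block (−0.70) and after the GC and length correction (−0.56). Of 20 adhesion and matrix genes 3 were positive and 5 negative. The list's median of 0.05 was −0.02 with library size alone and −0.01 without nutlin library 1. It was 0.02 without DMSO library 1 and 0.01 without GSK2830371 library 1. Higher medians were 0.13 after the GC and length correction, 0.12 without nutlin library 3 and 0.11 without combination library 1. Without DMSO library 3 it was 0.10, and without GSK2830371 library 3 0.09.

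Genes of prostaglandin synthesis were mixed, with 2 of 8 genes negative, 1 positive and a median of −0.29. Over all genes at 5 CPM or more, 6.41% were negative and 4.71% positive. *PTGES* (chromosome 9, 132500610 to 132515321), the inducible prostaglandin E synthase, was at 3.95 and 4.17 CPM with DMSO, 5.55 and 5.70 with nutlin, 7.003 and 6.67 with GSK2830371, and 1.22 and 1.97 with the combination. Each agent alone gave more than the vehicle, and the combination libraries lay below all others, for an interaction of −2.50 ± 0.22 (adjusted p = 1.39e-06 by edgeR quasi-likelihood F test, Benjamini-Hochberg). *PTGIS*, the prostacyclin synthase, had −0.90 ± 0.13, and *PTGS1*, cyclooxygenase 1, 0.76 ± 0.17 (0.59 and not called without nutlin library 3).

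Several of the largest interactions belonged to genes outside these lists. *GPRIN3*, a G protein regulated inducer of neurite outgrowth, was at 7.22 and 3.77 CPM with DMSO, 4.23 and 3.06 with nutlin, 6.97 and 4.16 with GSK2830371, and 0.691 and 0.215 with the combination. Its libraries numbered 1 and 3 differed in every treatment, the combination was lowest within each number, and the interaction was −3.20 ± 0.29 from 25 and 13 counts with the combination. *KCNJ16*, an inwardly rectifying potassium channel, was at 10.4 and 9.38 CPM with DMSO, 16.5 and 18.2 with nutlin, 8.46 and 8.09 with GSK2830371, and 2.57 and 3.13 with the combination. *SLC4A4*, a sodium bicarbonate cotransporter, was at 55.7 and 39.8 CPM with DMSO, 45.1 and 39.7 with nutlin, 53.4 and 44.2 with GSK2830371, and 13.3 and 8.43 with the combination. Both were lowest with the combination, at interactions of −2.33 ± 0.16 and −2.06 ± 0.13. *KLHL14*, an adaptor protein, and *OLFML2B*, a secreted olfactomedin, were also lowest with the combination, with −2.25 ± 0.21 and −2.34 ± 0.24. *HSD3B7*, an enzyme of bile acid synthesis, had −2.23 ± 0.18, and *CGNL1*, a junction protein, had −1.98 ± 0.11, as nutlin raised it from 75.1 and 60.8 to 126 and 114 CPM while the combination took it to 41.4 and 29.4.

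*CHRD*, an antagonist of bone morphogenetic proteins, was at 10.8 and 9.56 CPM with DMSO, 47.9 and 44.7 with nutlin, 13.1 and 12.5 with GSK2830371, and 16.8 and 11.9 with the combination. It was a case in which GSK2830371 removed an increase, since the nutlin effect was 2.19 without and 0.13 with it and the interaction −2.06 ± 0.14. *TUBA1A*, an α-tubulin, had −2.03 ± 0.11, with a nutlin effect of 1.10 without and −0.93 with GSK2830371, and is uncertain because close paralogs can share its reads. On the positive side *RAB39B*, a GTPase of vesicle traffic, had 2.27 ± 0.34 and was high in the combination libraries alone, at 11.01 and 9.42 CPM against at most 1.97 CPM elsewhere. *KIAA1751* and the long noncoding RNA *LINC00324* were nearly absent without nutlin. *KIAA1751* had 6 and 4 counts with DMSO, 396 and 676 with nutlin, 1 and 3 with GSK2830371 and 1536 and 2013 with the combination. Counts of *LINC00324* were 3 and 9, 86 and 190, 2 and 7, and 277 and 574 in the same order. Their interactions of 2.96 ± 0.72 and 2.03 ± 0.61 rest on these few counts without nutlin. The first was not called without the block or without DMSO library 1 (2.39), and the second not without the block, DMSO library 3 (1.73), nutlin library 3 (1.87), GSK2830371 library 1 (1.95), GSK2830371 library 3 (2.24) or combination library 3 (1.91).

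Of the 23 lists, 2 had no called member. All 20 cytosolic ribosomal protein genes had values above 0, from 0.28 to 0.49, with a median of 0.40 that became 0.33 with library size alone, 0.30 after the GC and length correction and 0.31 without DMSO library 3, though pseudogene copies make single members uncertain. The 16 cytosolic heat shock chaperones had a median of 0.12. The signs of list medians held under the alternatives tried, apart from those of the adhesion and matrix list, given above, and the endoplasmic reticulum list, at 0.01 without combination library 1 and −0.09 with library size alone.

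Sizes of several list medians were less stable. Secreted stress factors went from 0.31 to 0.08 without DMSO library 3 and 0.18 without GSK2830371 library 3. The median of amino acid transporters, 0.12, was 0.03 without DMSO library 1, 0.20 without DMSO library 3, 0.02 without nutlin library 1, 0.20 without nutlin library 3, 0.05 with library size alone and 0.19 after the GC and length correction. NF-κB targets had 0.32 without combination library 1 in place of 0.54, and ligands and receptors of the EGF family 0.28 without combination library 3 in place of 0.48. For p53 targets in arrest the median of 0.24 was 0.36 without DMSO library 3 or combination library 1. That of the G1/S list, 0.10, was 0.17 without nutlin library 1, 0.15 without nutlin library 3, 0.16 without GSK2830371 library 3, 0.18 without combination library 1 and 0.03 with library size alone. Heat shock chaperones had 0.20 without GSK2830371 library 1, 0.07 without GSK2830371 library 3, 0.23 without combination library 1, 0.05 without combination library 3 or with library size alone, and 0.07 after the GC and length correction. The immediate early list, at −0.07, had −0.04 without nutlin library 1, −0.10 without nutlin library 3, −0.02 without combination library 1 and −0.14 with library size alone.

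**Figure D3:**
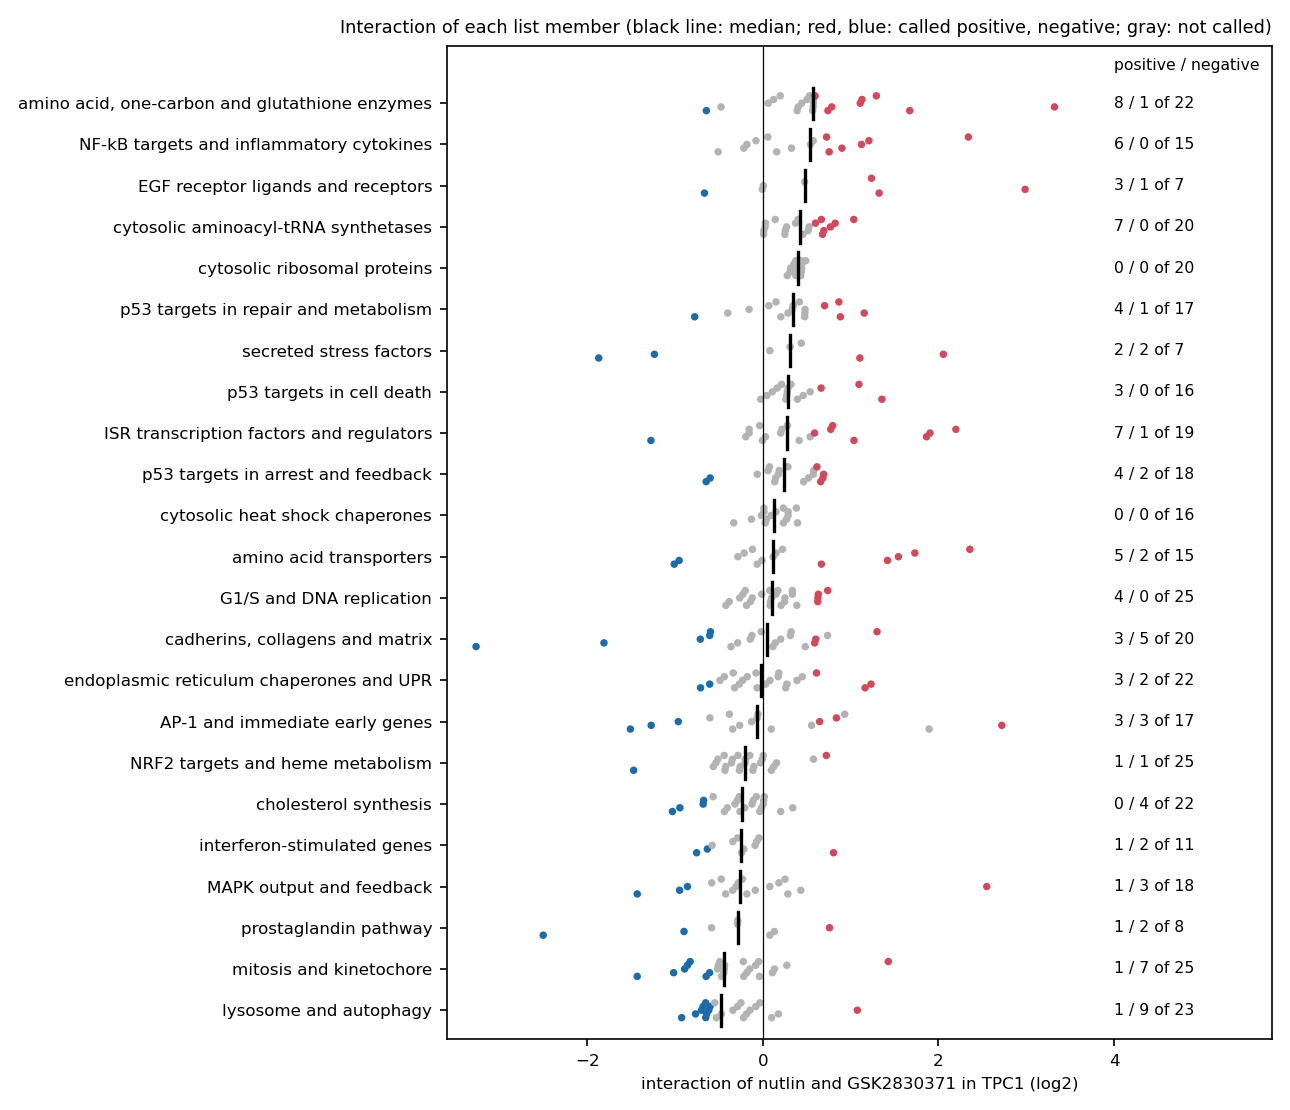
Interaction in TPC1 (log2, x axis) of each list member averaging 5 CPM or more in some group, with a black line at the median of each of the 23 lists and the counts of positive and negative members at the right. Enzymes of amino acid metabolism had the highest median (0.57, 8 of 22 positive) and lysosomal genes the lowest (−0.47, 9 of 23 negative). Both ranks changed in some alternative fits. Over all genes at that level 4.71% were positive and 6.41% negative.

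Whether these interactions differed from those of K1, the other thyroid carcinoma line of the series under the same treatments, was tested in a fit of all 16 libraries. Of 16738 genes tested, 442 (2.64%) had a higher interaction in TPC1 and 827 (4.94%) a lower one, by the same call rule. The total of 1269 was 525 without the block. In K1 the median interaction ran from 0.30 in the fifth of genes with the lowest GC content to −0.15 in that with the highest, against 0.02 to −0.06 in TPC1. In the fifth with the shortest transcripts the TPC1 median was 0.08 and the K1 median −0.09, and in the fifth with the longest they were −0.09 and 0.07. The part of these trends in the difference was not tested. K1 was grown in DMEM and TPC1 in RPMI, so line and medium cannot be told apart in any of these differences. Genes of the ATF4 program were divided between those with and without a called difference. *CHAC1* had 3.32 in TPC1 and 3.33 in K1, *TRIB3* 0.79 and 0.79, and *ATF4* 0.77 and 1.00, and no difference was called for any of them, which does not show that they were equal. *DDIT3* and *SLC1A4* were above 0 in both lines with a called excess in TPC1 of 1.30 ± 0.24 and 1.52 ± 0.21. A called excess was also found for *CEBPG* (0.99 ± 0.14), *SLC1A5* (1.03 ± 0.18), *GOT1* (0.93 ± 0.15) and *WARS* (1.00 ± 0.22).

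Some cell cycle genes and p53 targets differed between the lines and others had no called difference. *KIF20A* had 1.42 in TPC1 and −1.21 in K1, a difference of 2.63 ± 0.25 (adjusted p = 7.13e-06 by edgeR quasi-likelihood F test, Benjamini-Hochberg), and *FAM83D* 1.24 and −0.99. Opposite signs were also measured for *BTG2* (0.61 and −0.77), *CDKN1A* (0.57 and −0.41) and *BBC3* (0.26 and −0.34), with called differences of 1.39, 0.99 and 0.60. *CDKN1A* was below 1.5-fold in either line. *BBC3* did not pass the test in either, so the signs of its interactions are uncertain, and its difference lay just above 1.5-fold. No difference was called for *MKI67* (−0.21), *E2F1* (0.70), *MDM2* (−0.22) or *PMAIP1* (0.38). Interactions near 0 in K1 faced large ones in TPC1 for *SPRY1* (−0.02 against 2.54) and *STC1* (−0.11 against −1.88), but *SPRY1* lay at group means of only 0.765 to 0.904 CPM in K1. *CDH6* and *GPRIN3* had lower interactions in TPC1, with differences of −2.75 ± 0.48 and −2.76 ± 0.37. In K1 their interactions were also below 0, at −0.53 and −0.45, and neither was called. Group means of *CDH6* were 305 to 922 CPM in K1 and 0.492 to 21.4 CPM in TPC1. *HMOX1* had −1.47 in TPC1 and 0.11 in K1, and *KLHL24* −1.28 and 0.66.

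**Figure D4:**
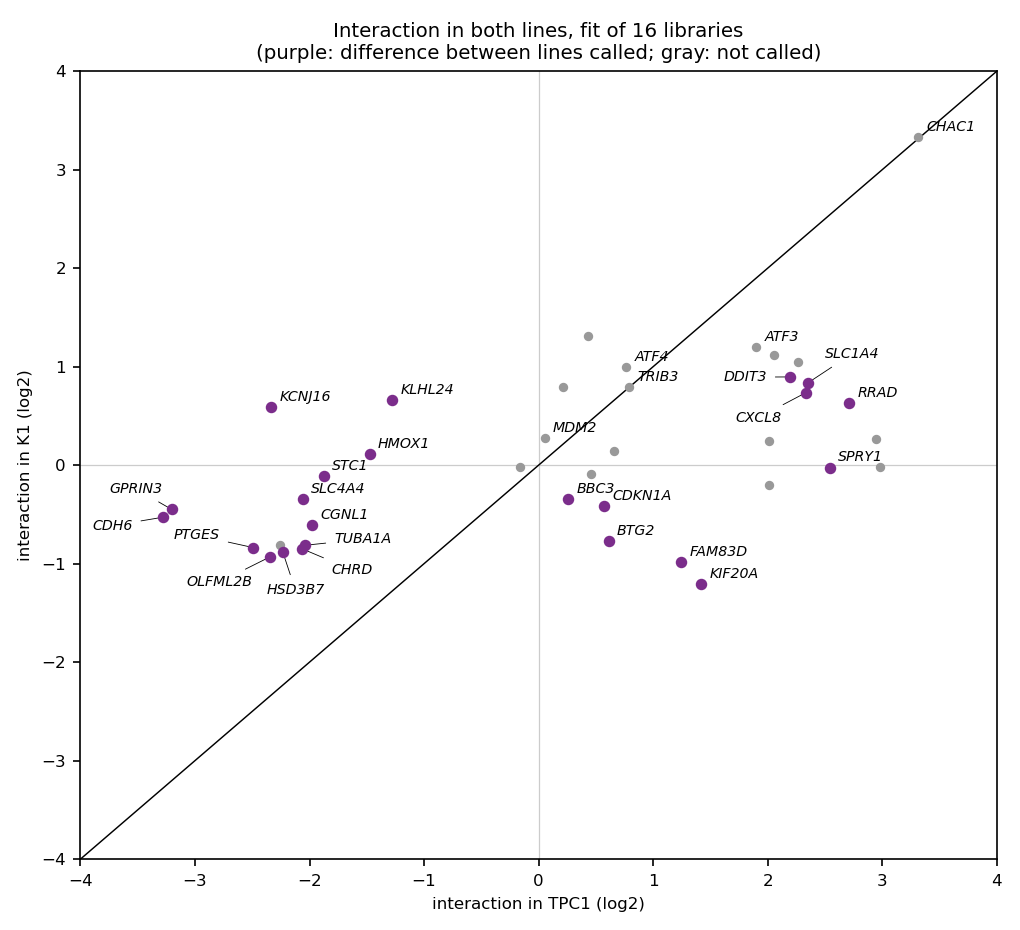
Interaction in TPC1 (x axis) and K1 (y axis), both log2 values from the fit of all 16 libraries, for 40 of the named genes, with the diagonal marking equal values. The 23 genes in purple had a called difference, among them *KIF20A* and *FAM83D* with opposite signs, and *CHAC1* lies on the diagonal.

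These values rest on 2 libraries per treatment at a single time and dose, with 3 residual degrees of freedom. Interaction was defined on the log2 scale, and effects that add in CPM gave another sign for some genes. Counts of called genes depended on the block and on the scaling. The libraries hold no measure of cell number, protein, phosphorylation or translation, and polyadenylated RNA does not separate synthesis from decay. A change in the share of cells in each cycle phase was not separated from a change per cell. Annotated genes on the same strand overlap *DDIT3*, *MDM2*, *NUPR1*, *KCNJ16*, *LPIN1*, *IRF9*, *SRXN1* and *PTGS1*, and their part in these counts was not tested. Lists were drawn from general knowledge, with earlier results of these data known. Genes outside them were described only where their interactions, or their differences from K1, were among the largest.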

How the data were processed

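The authors sequenced strand-specific polyadenylated RNA, aligned the reads to GRCh37 with TopHat2 2.0.13 and counted them per gene with HTSeq 0.6.1, so the deposited values are raw counts per gene symbol. All columns were used.

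Counts were scaled by TMM and fitted with edgeR 4.0.16 (limma 3.58.1, R 4.3.3), with treatment and column number as terms. Numbers shared by libraries were taken to pair them, because the log2 differences between numbers correlated at 0.447 to 0.616 across 12308 genes for every pair of TPC1 treatments. Genes, over which these were taken, are not independent replicates. Replicates of a treatment varied 11.03 to 45.9 times as much as counting alone would give. Alternatives used DESeq2 1.42.0, limma-voom, other scaling and filters, no block, and each library left out in turn. A self-test on simulated counts preceded the fit. Python 3.11.15 was used for tables and plots.

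Named genes are the 12 largest interactions in each direction at 5 CPM or more, up to 4 called members per list, 15 always named genes, and the 3 largest differences from K1 in each direction. The comparison, lists and named genes were chosen with earlier results of these data known.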

Additional observations from a re-analysis of the deposited data

Results flagged for a closer look

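Each of the following TPC1 results differed from K1 in a test of the difference between the lines (adjusted p below 0.05 in the edgeR quasi-likelihood F test, Benjamini-Hochberg, and more than 1.5-fold), among the genes named for the size of their interaction, for the size of this difference or for their role in these pathways. Values are the TPC1 interaction minus the K1 interaction on the log2 scale. The column number was fitted as a block, although it does not pair the K1 libraries. Without it the called differences fell from 1269 to 525, and the calls of single genes in that fit are not given here. Higher in TPC1 were *KIF20A* by 2.63, *SPRY1* by 2.57, *FAM83D* by 2.23, *RRAD* by 2.08, *CXCL8* by 1.598, *SLC1A4* by 1.52, *BTG2* by 1.39, *DDIT3* by 1.30, *CDKN1A* by 0.99 and *BBC3* by 0.60. Lower values in TPC1 were those of *CHRD* (−1.21), *TUBA1A* (−1.23), *HSD3B7* (−1.35), *CGNL1* (−1.37), *OLFML2B* (−1.42), *HMOX1* (−1.58), *PTGES* (−1.66), *SLC4A4* (−1.71), *STC1* (−1.76), *KLHL24* (−1.94), *CDH6* (−2.75), *GPRIN3* (−2.76) and *KCNJ16* (−2.93). Trends of the interaction with GC content and transcript length were not removed from these values, and their part in them was not tested. The lines were grown in different media, so line and medium cannot be told apart. In K1, *SPRY1* lay at group means of 0.765 to 0.904 CPM and *KCNJ16* at 0.198 to 0.504 CPM. *CDH6* lay at 305 to 922 CPM in K1, against 0.492 to 21.4 CPM in TPC1.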

How the results depend on the processing

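Without the replicate block, positive genes numbered 431 and negative genes 534, of which 429 and 532 were among the 714 and 859 called with it, and the number of called differences between TPC1 and K1 was 525. The column numbers of K1 do not pair its libraries, with correlations from −0.321 to 0.335. With no fold threshold, 1981 genes were positive and 2157 negative, of which 1780 and 1995 had a mean of at least 5 CPM in some group. A threshold of 2-fold gave 263 and 247 genes, with 127 and 135 at that level, and at 20 CPM or more 310 genes were positive and 485 negative. Leaving out each library in turn gave 514 to 762 positive and 661 to 955 negative genes, and 448 to 562 and 590 to 784 at 5 CPM or more, with the lone library of a treatment assumed to vary like the other groups. Correcting for GC content and length, chosen after seeing the data, gave 608 and 725 genes, but only 13652 of the 15273 genes (89.4%) have both properties and entered that fit, so fewer genes and the correction cannot be told apart in these counts. No gene was called with opposite signs in any of these fits.

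On the linear scale *CDH6* (1.06 CPM), *ABCA12* (−7.80), *CDC25C* (0.901), *MKI67* (266.7) and *CENPF* (48.4) took the opposite sign, which follows from adding effects in place of multiplying them. Of 97 called named genes, 74 were called in every alternative fit that held them and 0 changed sign in one. Without some single library 18 were not called. For the other changes the cause was not tested. *KIAA1751* and *LINC00324* had few counts without nutlin, and whether depth limited their calls was not tested.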

Other observations

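Below 5 CPM in every treatment, 4378 tested genes held 201 positive and 161 negative interactions, and 7 of them belonged to the lists. They fall outside the rule for named genes and were chosen after their values were seen. *TP73*, a p53 family member, had 2.40, *CRYAB*, a small heat shock protein, 2.05, and *CXCL3*, a chemokine, 1.51. Negative values were those of *PLA2G4A*, the cytosolic phospholipase A2 that releases arachidonic acid (−1.21), *CSF2*, which encodes GM-CSF (−1.15), and the interferon-stimulated genes *OASL* (−0.89) and *IFI44* (−0.65). Each lay at or below 4.64 CPM in its highest treatment.

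*PDGFRB* and *COL1A1*, the only mesenchymal markers of 4 above 0.1 CPM, had lower values in the treated libraries, which were not tested here. Summed over *COL1A1*, *COL1A2*, *PDGFRB* and *DCN*, they came to 19.4 and 17.4 CPM with DMSO, 7.54 and 7.45 with nutlin, 10.1 and 10.1 with GSK2830371, and 3.46 and 4.95 with the combination, with *PDGFRB* the most abundant, *COL1A2* at no more than 0.0156 CPM and *DCN* at 0. The epithelial markers summed to 788 and 915 CPM with DMSO, 596 and 647 with nutlin, 677.5 and 746 with GSK2830371, and 427 and 499 with the combination. *CD68*, the only leukocyte marker detected, ran from 33.9 to 72.9 CPM and was highest with nutlin.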
